A study of Mus musculus with 50 samples.

Results

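Reads from the 129 and the CAST allele were compared gene by gene within 1 library of wild-type mouse embryonic fibroblasts (MEF), the only wild-type MEF library with RNA-seq among the 50 samples of the series. Their strain background is given as CAST/Ei by 129/Sv/Jae, a hybrid, so each autosome was present in a CAST and a 129 copy, and a read over a strain variant could be given to one of them. The study as a whole followed Xist, the RNA of the inactive X chromosome, and the loss of its tandem Repeat B, in MEF and in ES cells. Of its 50 samples, 46 were not analysed here. The library yielded 12126941 counts of poly(A) RNA, of which 27.7% could be given to an allele, 1626256 to 129 and 1732629 to CAST. Of 24391 genes in the table, 14297 had a count above 0 and 9288 had at least 20 allelic reads and were kept: 9072 on the autosomes, 215 on the X chromosome, and Xist itself.

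Other libraries served only as a reference beside these values. A second MEF library of the same cross lacked Repeat B of Xist (18631736 counts), and the labels do not say on which allele. Wild-type ES cells, differentiated in culture, gave 19676395 and 12505962 counts in replicates 1 and 2. Of their allelic reads 79.1% came from 129 in each replicate, against 48.4% in the wild-type MEF. Over most autosomal stretches the ES cells had almost only 129 reads, so they were not an even hybrid like the MEF. Nothing in the labels tells whether either MEF line was a clone, was immortalised, or was pooled from several embryos, and they name no sex. Columns of allelic reads carry the headings mus and cas, here read as 129 and CAST after the strain label. With 1 library per genotype no test between alleles was possible. The 95% exact Clopper-Pearson intervals given below cover counting error only, since the reads carry no stated molecular identifiers.

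A hybrid cell reads out both parental genomes in the same nucleus, so a difference between its alleles comes with the chromosome. At most genes both copies are transcribed, and sequence differences between strains make one copy somewhat more active than the other. At imprinted genes, marks set in the egg or the sperm leave only the maternal or only the paternal copy active, whatever the strain. In female cells Xist coats one X chromosome and silences most of its genes, and the few that remain transcribed from it are said to escape.

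The cells carried the RNA of fibroblasts. All 28 fibroblast markers of a fixed list had counts, but the lowest had only 1 count, and 23 had at least 20 allelic reads. Their median was 357 RPKM (reads scaled to exon length and to total counts), with Col1a1, the main chain of type I collagen, at 4558 RPKM. Markers of other cell types were low: endothelial and muscle markers reached at most 8 counts, markers of pluripotent cells 3, epithelial markers 45 and blood markers 136. Of 7 neuronal markers, 4 had 0 counts, while Tubb3 had 989 and Map2 1039 counts. The 8 Y-linked genes listed had 0 counts each.

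On the autosomes the alleles were close to balance. Over 9072 genes the median share of allelic reads from 129 was 49.2%, with quartiles of 43.1% and 55.4%, and 8629 genes (95.1%) lay between 20% and 80%. Pooled over all autosomal reads the 129 share was 49.2% (interval 49.2% to 49.3%). The deepest genes near balance were those of the fibroblast matrix and skeleton. Col1a1 had 28267 reads from 129 and 29472 from CAST, a share of 49.0%. Thbs1, a secreted glycoprotein of the matrix, had 14710 and 14695 reads (50.0%). Vim, the intermediate filament protein vimentin, had 19134 and 17199 (52.7%), and Col1a2, the second chain of type I collagen, had 18091 and 15319 (54.1%).

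Individual chromosomes stood apart from that balance. Of 19 autosomes, 16 had a median 129 share between 46.1% and 52.7%. Chromosome 1 had a median of 40.8% over 539 genes, and its 20 Mb stretches ran from 38.3% to 42.6%. Chromosome 4 lay on the other side, at 57.0% over 604 genes, with stretches from 55.0% to 62.7%. Chromosome 5 was at 44.6% over 639 genes, with stretches from 40% to 46.5%. Each of these shifts therefore ran along the whole chromosome and was not carried by a few genes. In the MEF library without Repeat B, 13 autosomes had medians between 49.0% and 50.9%, chromosome 1 among them at 49.0%. There chromosome 4 lay at 34.2%, chromosome 5 at 40.5%, chromosome 3 at 60.5%, chromosome 7 at 65.4%, chromosome 10 at 65.8% and chromosome 15 at 65.9%. In wild type the last 4 were at 50.7%, 46.1%, 50.8% and 52.4%. Chromosomes 4 and 7 thus leaned to opposite alleles in the libraries. Levels scaled to total counts (CPM) moved with the medians. Between the MEF libraries the median log2 difference of chromosome 4 genes (without Repeat B minus wild type, pseudocount 0.05) was -0.10 for all reads, -0.79 for 129 and 0.49 for CAST. For chromosome 7 it was -0.02, 0.46 and -0.61, and for chromosome 10 0.44, 0.82 and -0.03. On chromosomes 4 and 7 the alleles thus differed in opposite directions at nearly the same total, and on chromosome 10 the 129 allele and the total were both higher. Most autosomes had a difference above 0 for all reads, such as 0.16 for chromosomes 2 and 11, and chromosome 4 had the lowest. Chromosomes 3 and 15 resembled chromosome 10, at 0.51 and 0.53 for all reads and 0.79 and 0.88 for 129. What moved these levels was not tested.

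**Figure D1:**
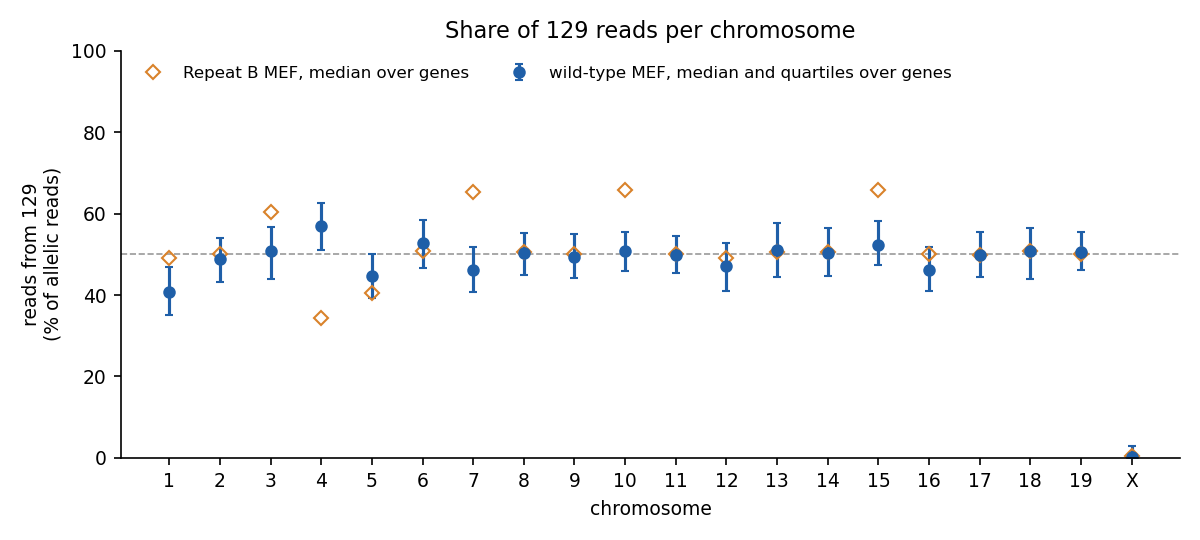
Median share of allelic reads from 129 for each chromosome (vertical axis, percent) in the wild-type MEF library (filled circles, bars from the lower to the upper quartile over genes) and in the MEF library without Repeat B (open diamonds). In wild type chromosome 1 lies at 40.8% and chromosome 4 at 57.0%, while the X chromosome lies at 0.147%.

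A lean of at least 2-fold to one allele was found at a minority of autosomal genes. Toward 129, 678 genes had at least 2 times as many reads as from CAST (7.47% of 9072), and 751 genes leaned that far toward CAST (8.28%), 15.8% together. Near-monoallelic expression, at least 9 reads to 1, was found at 236 genes (2.6%): 127 toward 129 (1.4%) and 109 toward CAST (1.2%). Of the 236, 20 belong to the lists of imprinted genes described below. In RNA from many cells, a gene read from both alleles in each cell and a mix of cells that each use one allele cannot be told apart.

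Leans to one allele recurred in the second MEF library. Of 678 genes past 2-fold toward 129, 620 had at least 20 allelic reads there, 520 of them (83.9%) lay on the same side and 369 (59.5%) were again past 2-fold, against 12.9% of all 8886 genes measured in both libraries. Of 751 toward CAST, 700 were measured, 586 (83.7%) lay on the same side and 335 (47.9%) were past 2-fold, against 8.53% of all genes. Across the 8886 genes the shares of the libraries had a Pearson r of 0.58 and a Spearman rho of 0.43. Whole chromosomes leaned in the second library, which enters these shares, and same-side shares over all genes were not counted. After the median of each chromosome was subtracted from the log2 ratio of 129 to CAST reads, r was 0.77 and rho 0.59. Of 580 genes then past 2-fold toward 129, 344 (59.3%) were so in both libraries, against 6.13% of all genes in the second. Toward CAST it was 312 of 530 (58.9%), against 6.07%. Both libraries share the cross, the reference genome and the variants counted. In both, most measured imprinted genes described below had CAST as the paternal and 129 as the maternal copy. A lean to a strain and a lean to a parental copy thus cannot be told apart here.

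**Figure D2:**
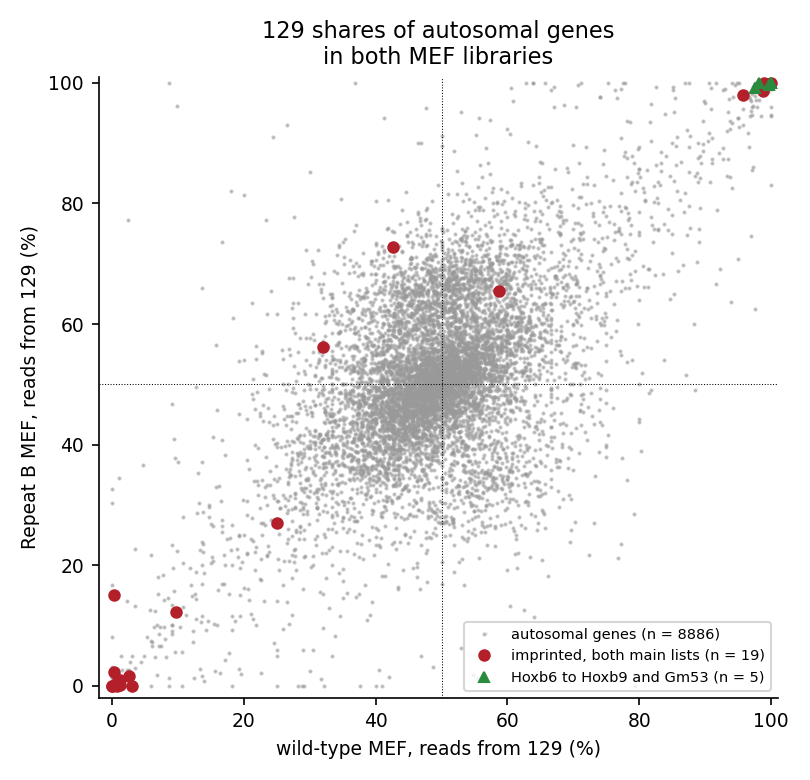
Share of allelic reads from 129 for 8886 autosomal genes, wild-type MEF on the horizontal axis and MEF without Repeat B on the vertical axis (percent), with imprinted genes as filled circles and Gm53 and Hoxb6 to Hoxb9 as triangles. Most genes gather near 50% in both libraries, and most imprinted genes and all 5 genes of the Hoxb stretch sit in the corners.

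The wild-type ES libraries gave a further check, because most of their autosomal stretches yielded almost only 129 reads. A gene was assessed where the 10 measured genes before it and the 10 after it each had a median of at least 95% from 129 in both ES libraries. Of 5487 such genes, 349 (6.36%) departed from their surroundings, with under 90% from 129 in both ES libraries. Among those past 2-fold toward CAST in the MEF this was so for 77 of 403 (19.1%), and among those past 2-fold toward 129 for 24 of 406 (5.91%). A gene whose CAST reads were lost or given to 129 would not depart in such a stretch. The check therefore cannot find errors of that kind among genes leaning toward 129. Genes named below that departed are marked as such. Where ES cells had both alleles (2258 genes), r between the MEF share and the mean ES share was 0.57 and rho 0.45. There 89 of 121 genes past 2-fold toward 129 (73.6%) lay on the same side in both ES libraries, where 36.8% of all 2258 did, and 44 (36.4%) were past 2-fold in both, against 2.97% of all. Of 172 genes toward CAST, 104 (60.5%) lay on the same side, against 32.9% of all, and 30 (17.4%) were past 2-fold in both, against 1.82%.

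Among genes with at least 200 allelic reads, the lowest 129 share belonged to Pax8, a paired-box transcription factor known from thyroid and kidney. It lies on chromosome 2 (listed exon 24276071 to 24277144, mm9, minus strand), with 2746 counts in all. Only 5 of its allelic reads came from 129 and 1070 from CAST, a 129 share of 0.465% (0.151% to 1.08%). In the MEF without Repeat B it had 0 and 881 reads. ES cells, where few reads were seen, had 16.7% and 30.0% from 129. Both MEF libraries thus expressed one copy of the gene. Dkk3, a secreted protein of the Dickkopf family, came next on chromosome 7, with 4 and 492 reads (0.806%). In the second MEF library only 4 and 2 allelic reads were left, so the lean could not be compared.

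The other genes of the 10 lowest were of several kinds. Hspa8, a constitutive heat-shock chaperone, had 89 and 1146 reads (7.21%), against 6.66% in the second MEF library and 6.69% and 2.04% in ES cells, where its neighbours showed both alleles. Rps10, a ribosomal protein, had 8 and 334 reads (2.34%), and 1.42% in the second MEF library, but 95.7% and 97.3% in ES cells among neighbours with 129 reads only. Serpina3h, a serine protease inhibitor of a large gene family, had 20 and 246 reads (7.52%). The remaining 5 of the 10 lowest departed from their ES surroundings. These were Fau (1.10%), Rps6 (4.87%), Serf2 (6.02%), Rpl36 (7.22%) and Ap2m1 (7.90%), whose ES shares lay between 11% and 86.3%.

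At the 129 end the deepest gene was Fbln2, which codes for fibulin-2, a protein of elastic fibres and basement membranes. It lies on chromosome 6 and had 6202 reads from 129 against 62 from CAST, a share of 99.0% (98.7% to 99.2%), and 99.1% in the second MEF library. Plin3, a coat protein of lipid droplets, had 319 and 4 reads (98.8%, and 98.4% in the second library). Ank3, the membrane adaptor ankyrin-G, had 218 and 5 (97.8% and 98.9%). These genes leaned alike in both MEF libraries. Rpl11 did not: it had 276 and 7 reads (97.5%) in wild type and 25 and 15 (62.5%) in the second library. It lies on chromosome 4, whose median was 57.0% in wild type and 34.2% in the second library. The others of the 10 highest were Rn45s (99.7%), Hoxb9 (99.6%), Eif4a1 (99.5%), Rps26 (99.0%), Psme2b (98.2%) and Rps2 (97.5%). Rn45s is the ribosomal RNA precursor, a repeated gene, and Rps26 and Rps2 have near-identical copies, so their counts are uncertain.

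Genes with copies were common among the near-monoallelic ones. Of the 216 near-monoallelic genes outside the imprinted lists, 23 were ribosomal protein genes and 31 (14.4%) had a pseudogene that RefSeq names after them, against 2.52% of all 9072 autosomal genes. RefSeq names 4 pseudogenes after Rps10, 2 after Fau, 10 after Rpl36 and 12 after Rps2. Of the 70 ribosomal protein genes measured, 29 leaned past 2-fold toward 129 and 23 toward CAST (7.47% and 8.28% of all autosomal genes did so). The 29 include X-linked Rps4x, while the background is autosomal. Past 9-fold were 15 toward 129 and 8 toward CAST (1.4% and 1.2% of all autosomal genes). From their ES surroundings 9 of the 70 departed. Rpl35 had 96 and 0 reads, Rplp2 0 and 25, and Rpl4 1382 and 2949 (31.9%). Rplp0 had 3650 and 1811 reads (66.8%). Reads of such genes may be split among copies, and how the counting treated them is not given in the sources used here.

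A run of neighbouring genes on chromosome 11 was expressed almost only from 129. The run was singled out after its values were seen, by listing every place where at least 2 neighbouring measured genes were past 9-fold to the same allele, of which there were 6 with 16 genes. Hox genes code for transcription factors that give cells their position along the body axis, and fibroblasts keep a Hox pattern of their site of origin in culture. In chromosome order, Gm53 had 55 reads from 129 and 0 from CAST, a count of 0 that allows a CAST share of up to 5.45%. Hoxb9 (listed exon 96132644 to 96133372, mm9) had 248 and 1 reads, a 129 share of 99.6%. Hoxb8 had 185 and 0 reads, which allows up to 1.62% from CAST. All 3 were at 99.7% or more in the second MEF library too. Hoxb7 had 110 and 2 reads (98.2%), and Hoxb6 77 and 2 (97.5%), against 100% and 99.2% in the second library.

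The lean ended within the cluster. Hoxb5 had only 4 allelic reads, all from 129. Beyond it Hoxb4 had 29 and 48 reads (37.7%), Hoxb3 139 and 82 (62.9%) and Hoxb2 73 and 57 (56.2%), and in the second MEF library these were at 51.1%, 59.0% and 55.2%. On the outer side, Ube2z, a ubiquitin-conjugating enzyme, had 312 and 288 reads (52.0%) and Igf2bp1, an RNA-binding protein, had 102 and 131 (43.8%). Farther along, beyond Hoxb2, genes leaned variously: Snx11 had 31 and 25 reads (55.4%), while Cbx1, a chromatin protein, had 31 and 2 (93.9%, and 63.6% in the second library) and Copz2, a coatomer subunit, 159 and 32 (83.2%). The 5 genes of the run thus differed from Hoxb4, Hoxb3 and Hoxb2, while leans toward 129 also occurred at some of the more distant neighbours. In ES cells, where Hox counts were low, Gm53 had 13 and 11 reads in replicate 1 and 8 and 6 in replicate 2, with both alleles seen.

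**Figure D3:**
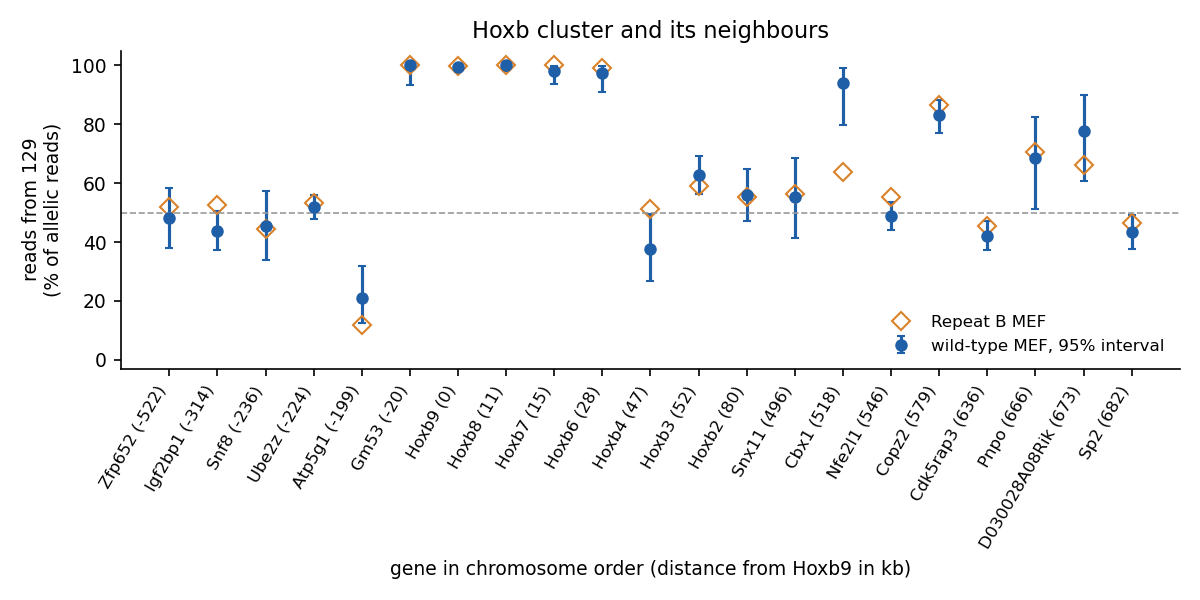
Share of allelic reads from 129 (vertical axis, percent) for the measured genes of the Hoxb cluster and its neighbours in chromosome order, with the distance from Hoxb9 in kb after each name; filled circles with 95% intervals are wild-type MEF and open diamonds MEF without Repeat B. Gm53 and Hoxb9 to Hoxb6 sit above 97%, while Hoxb4, Hoxb3 and Hoxb2 lie between 37.7% and 62.9%.

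Clustered protocadherins also showed mixed leans. They are cell adhesion proteins known for being chosen one promoter and one allele at a time in single neurons. Singled out by the same listing, 15 of the 59 genes in the table were measured, with shares from 0% to 97.8% and a median of 51.0%. Pcdha5 had 0 and 64 reads and Pcdhb5 7 and 94 (6.93%), while Pcdhga7 had 89 and 2 (97.8%). Of 15 genes, 6 were past 2-fold toward 129 and 5 toward CAST (7.47% and 8.28% of all autosomal genes). The 5 include Pcdha5 and Pcdhb5, whose run singled the family out, so these counts are not independent of that choice. In the second MEF library 8 of these 11 were again past 2-fold on the same side. Among all measured autosomal genes past 2-fold, 59.5% of those toward 129 and 47.9% of those toward CAST were so. Neighbours in these clusters thus leaned to different alleles within 1 library.

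Counts among matrix and fibroblast genes were near the background. Of 44 matrix genes measured, 5 were past 2-fold toward 129 and 4 toward CAST (7.47% and 8.28% over all autosomal genes), with a median of 47.9% against 49.2% over all autosomal genes. Besides Fbln2, Loxl2, an enzyme that cross-links collagen, had 797 and 54 reads (93.7%, and 97.3% in the second library). Postn, the matrix protein periostin, had 376 and 30 (92.6% and 87.4%). Col18a1, a collagen of basement membranes, leaned to CAST with 78 and 355 reads (18.0%), but stood at 82.0% in the second library. Its chromosome 10 had medians of 50.8% and 65.8%. Of 23 fibroblast markers measured, 3 were past 2-fold toward 129 and 2 toward CAST. Pdgfra, a growth factor receptor of mesenchymal cells, had 158 and 579 reads (21.4% and, in the second library, 11.1%). Mmp2, a gelatinase, had 2312 and 5422 (29.9% and 26.9%). Thy1, a surface glycoprotein of many fibroblasts, had 56 and 0 reads, which allows up to 5.36% from CAST, and had 0 counts in the second library. Fn1, fibronectin, had 24741 and 38730 reads (39.0%), a share near the 40.8% of its chromosome, and 49.0% in the second library, where chromosome 1 was at 49.0%.

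Among 26 housekeeping genes measured, 3 were past 2-fold toward 129 and 1 toward CAST, where 7.47% and 8.28% of all autosomal genes were, so the counts are near or below that background. Actb, beta-actin, had 1113 and 59 allelic reads (95%) out of 54498 counts, and was at 94.1% in the second MEF library and at 95% and 94.5% in ES cells. Only a small part of its reads could be given to an allele, and RefSeq names 1 pseudogene after it. Vcp, an ATPase that pulls proteins from complexes, had 489 and 35 reads (93.3%). Pkm, a glycolytic enzyme, leaned to CAST in all 4 libraries, with 2786 and 5185 reads (35.0%) and 38.1%, 39.1% and 34.9% in the others. Eef2, an elongation factor of translation, was balanced, with 6333 and 6266 reads (50.3%).

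Genes of defence and detoxification were counted against the same background of 7.47% toward 129 and 8.28% toward CAST. Of 9 glutathione and xenobiotic enzymes measured, 4 were past 2-fold toward 129 and 1 toward CAST, with a median of 59.9%. Gstt1, a glutathione transferase, had 76 and 1 reads (98.7%, and 100% in the second library), Nqo1, a quinone reductase, 82 and 17 (82.8% and 75.6%) and Gstp1 94 and 21 (81.7% and 77.8%). Gsto1 leaned the other way, at 31.1% and 32.6%. The deepest of them, Cyp1b1, a cytochrome P450, had 1038 and 875 reads (54.3%). Of 13 interferon-stimulated genes measured, 4 leaned past 2-fold toward 129 and 3 toward CAST (7.47% and 8.28% of all). Ly6e, a surface protein of the Ly6 family, had 370 and 23 reads (94.1% and 97.7%). Gbp3, a guanylate-binding protein, had 4 and 54 (6.90% and 10.0%), and Irgm1, an immunity-related GTPase, had 109 and 24 (82.0% and 76.4%). Of 9 genes of the major histocompatibility complex and its partners, 2 were past 2-fold toward 129 and 1 toward CAST (7.47% and 8.28% of all), counts too small to set apart from that share. H2-D1, a class I heavy chain, had 39 and 9 reads (81.2%) and H2-M3 5 and 34 (12.8%), while B2m, their common light chain, had 641 and 630 (50.4%). Class I genes resemble one another closely and differ much between strains, so their shares are uncertain.

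Imprinted genes separated by parent of origin. The lists held 41 genes that are known to be expressed from one parental allele in many tissues. Of these 23 were measured, 9 had 0 counts and 9 had counts but too few allelic reads. All 14 measured genes of the paternally expressed list were past 2-fold toward CAST, where 8.28% of all autosomal genes were, and 11 were past 9-fold (1.2% of all). Of the 9 maternally expressed genes measured, 7 were past 2-fold toward 129 and all 7 also past 9-fold (7.47% and 1.4% of all). The medians were 1.26% and 98.6% from 129. No gene of either list leaned past 2-fold to the opposite side. At 21 of 23 genes the allele known to be expressed was thus CAST for the paternal list and 129 for the maternal list. The other allele gave 0% to 9.74% of reads at the 18 genes past 9-fold, with a median of 1.16%.

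Promoter sequences of 5 of these genes are shown because imprints are set as DNA methylation at CG dinucleotides, often over such promoters. They come from RefSeq (build GRCm38.p6, whose coordinates differ from the mm9 positions used elsewhere), run 5′ to 3′ along the gene's strand from 250 bases before to 50 bases after the start, and have each CG in capitals.
Peg3: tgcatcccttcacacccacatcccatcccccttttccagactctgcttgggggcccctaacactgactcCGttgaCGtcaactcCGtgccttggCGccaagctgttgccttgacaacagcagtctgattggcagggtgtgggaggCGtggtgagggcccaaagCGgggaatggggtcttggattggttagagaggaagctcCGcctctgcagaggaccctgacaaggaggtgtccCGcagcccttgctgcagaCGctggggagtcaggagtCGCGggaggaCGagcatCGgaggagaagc
Mest: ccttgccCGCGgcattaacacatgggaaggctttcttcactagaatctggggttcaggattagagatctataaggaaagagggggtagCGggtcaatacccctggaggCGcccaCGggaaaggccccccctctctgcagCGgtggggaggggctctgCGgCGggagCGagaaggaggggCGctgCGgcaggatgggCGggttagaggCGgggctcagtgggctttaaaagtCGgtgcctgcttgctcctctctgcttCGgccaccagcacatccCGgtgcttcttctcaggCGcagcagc
Plagl1: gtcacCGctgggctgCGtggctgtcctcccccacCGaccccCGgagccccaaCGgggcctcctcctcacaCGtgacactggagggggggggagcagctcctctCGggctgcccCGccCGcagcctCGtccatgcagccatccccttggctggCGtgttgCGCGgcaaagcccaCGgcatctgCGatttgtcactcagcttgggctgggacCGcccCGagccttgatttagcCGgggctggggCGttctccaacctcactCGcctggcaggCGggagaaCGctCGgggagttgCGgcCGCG
Kcnq1ot1: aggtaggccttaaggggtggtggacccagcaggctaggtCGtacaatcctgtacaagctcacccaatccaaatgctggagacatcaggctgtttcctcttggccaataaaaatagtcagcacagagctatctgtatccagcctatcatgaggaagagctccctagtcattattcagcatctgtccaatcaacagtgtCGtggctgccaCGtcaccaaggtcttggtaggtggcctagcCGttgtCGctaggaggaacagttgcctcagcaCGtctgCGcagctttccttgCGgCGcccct
Meg3: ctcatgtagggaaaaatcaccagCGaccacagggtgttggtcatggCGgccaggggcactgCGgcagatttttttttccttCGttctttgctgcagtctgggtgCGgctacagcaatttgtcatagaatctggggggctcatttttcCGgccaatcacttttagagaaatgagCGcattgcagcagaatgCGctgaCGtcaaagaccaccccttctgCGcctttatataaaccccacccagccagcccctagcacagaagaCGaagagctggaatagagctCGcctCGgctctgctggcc
The windows are chr7:6730370-6730669 on the minus strand (Peg3), chr6:30737800-30738099 (Mest, the one of 3 listed windows with most CG), chr10:13090582-13090881 (Plagl1), chr7:143296498-143296797 on the minus strand (Kcnq1ot1) and chr12:109540746-109541045 (Meg3, of 2 listed windows). They hold 13, 17, 26, 9 and 13 CG, where the median of 32851 windows was 7. At least as many CG were found in 37.9% of all windows for Peg3 and Meg3, 31.4% for Mest, 16.9% for Plagl1 and 45.8% for Kcnq1ot1, so only Plagl1 came near the upper end. The letters TGCCGC, known as the methylated motif bound by ZFP57, were searched on both strands, and each match also holds 1 of the CG. They occurred 2 times in the Mest window and 1 time in those of Plagl1 and Meg3, and were not in those of Peg3 and Kcnq1ot1; 11.6% of all windows held them.

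Paternally expressed genes gave some of the purest CAST signals of the library. Peg3, a zinc-finger protein of placenta and brain, had 1 read from 129 and 368 from CAST (0.271%, with an upper bound of 1.5%). Slc38a4, an amino acid transporter, had 1 and 333 reads (0.299%). Mest, a hydrolase-like protein named for its expression in mesoderm, had 2 and 250 (0.794%). Near-silent 129 copies were thus seen at depths above 200 reads. Peg10, a gene derived from a retrotransposon, had 3 and 241 reads (1.23%), and its neighbour Sgce, the sarcoglycan epsilon, 1 and 77 (1.28%). Impact, a regulator of translation, had 1 and 111 reads (0.893%). Plagl1, a zinc-finger protein that restrains growth, had 11 and 420 (2.55%). Kcnq1ot1, the long antisense RNA that silences its cluster, had 1 and 31 (3.12%). Peg13 had 0 and 57 reads and Zrsr1 0 and 28, counts of 0 that allow up to 5.26% and 10.7% from 129.

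Other paternal genes kept a sizeable share from 129. Dlk1, a Notch-like ligand made in fetal tissue, was deep enough to show this closely. It had 218 and 2021 reads, a 129 share of 9.74% (8.54% to 11%), and 12.2% in the second MEF library. Ndn, the growth suppressor necdin, had 23 and 91 reads (20.2%, 13.2% to 28.7%), and Peg12, nearby on the same chromosome, had 24 and 51 (32.0%, 21.7% to 43.8%). Their intervals lay above those of Peg3 and Mest. Mcts2, a retrogene within an intron of H13, had 5 and 15 reads (25%). In the second library Peg12 was at 56.2% on a chromosome with a median of 65.4%, and Ndn had only 3 allelic reads. In ES cells, in a stretch with both alleles, Ndn was at 47.3% and 47.1%.

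Maternally expressed genes mirrored this on the 129 side. Grb10, an adaptor that restrains growth factor signalling, had 586 and 7 reads (98.8%), and 98.6% in the second MEF library. Igf2r, the receptor that clears insulin-like growth factor 2, had 242 and 11 (95.7% and 98.0%). Cdkn1c, a cell-cycle inhibitor, had 25 and 0 reads, which allows up to 12% from CAST, and Zim1, the maternal neighbour of Peg3, had 64 and 0 (up to 4.69%). On chromosome 12 the non-coding RNA genes Meg3, Rian and Mirg follow one another and lie near Dlk1. Meg3 had 430 and 5 reads (98.9%), Rian 279 and 13 (95.5%) and Mirg 73 and 1 (98.6%). Thus Dlk1 was read mostly from CAST and its 3 neighbours almost only from 129. In the second MEF library total counts were 119 for Meg3, 30 for Rian and 5 for Mirg, against 2171, 702 and 153 in wild type, while Dlk1 kept 405 and 2914 allelic reads.

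H19 and H13 did not follow their list. H19, a maternally expressed non-coding RNA of fetal tissue, had 375 reads from 129 and 505 from CAST, a share of 42.6% (39.3% to 46.0%). It lies on chromosome 7 (listed exon 149761435 to 149762019, mm9), whose median was 46.1%, so its alleles were about as balanced as those of the genes around it. In the second MEF library it had 270 counts in all, against 4014 in wild type, and 51 and 19 allelic reads. Igf2, its paternally expressed partner, had 1 count. H13, a signal peptide peptidase whose long transcript is maternal, had 469 and 329 reads (58.8%); its shorter transcripts are paternal and counts per gene merge them.

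**Figure D4:**
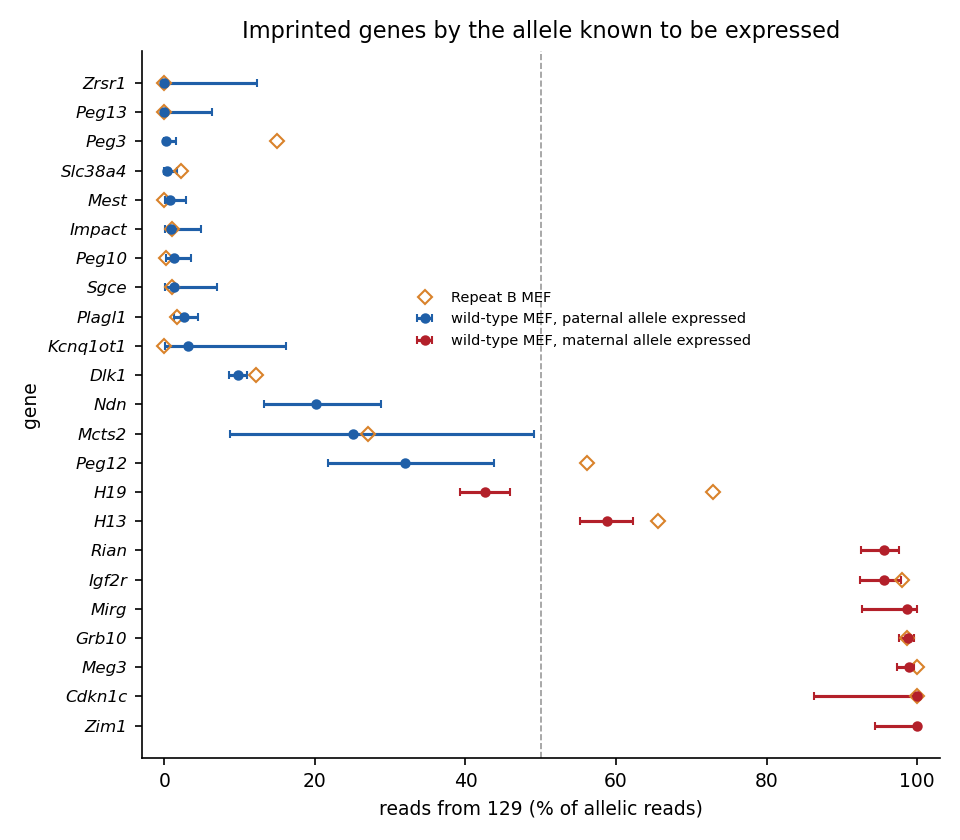
Share of allelic reads from 129 (horizontal axis, percent) for the 23 measured imprinted genes of both lists, with 95% intervals in wild-type MEF (filled circles) and values in MEF without Repeat B (open diamonds, genes with at least 20 allelic reads there). Paternally expressed genes lie between 0% and 32.0%, 7 of 9 maternally expressed genes lie above 95%, and H19 and H13 lie near the middle.

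Genes reported as imprinted only in some tissues, mostly placenta or brain, were about as balanced here as autosomal genes in general. Of 18 measured, 16 were within 2-fold and 2 past it, where 15.8% of all autosomal genes were past it. The median was 49.5%, against 49.2% over all autosomal genes. Cd81, a tetraspanin next to the Kcnq1ot1 cluster, had 249 and 258 reads (49.1%), and Trappc9, a trafficking protein around Peg13, 231 and 213 (52.0%). The exceptions were neighbours on chromosome 6 near Peg10 and Sgce. Asb4 had 47 and 0 reads and Pon2, a lactonase, 30 and 0, which allows up to 6.38% and 10.0% from CAST, and in the second library all 4 and all 60 of their allelic reads came from 129. The 4 genes thus read out opposite alleles within 1 stretch, with Sgce and Peg10 from CAST and Pon2 and Asb4 from 129. Gnas, whose transcripts differ in their parental allele, had 19128 counts but only 9 allelic reads, and Airn, the RNA that silences Igf2r in cis, had 17, all from CAST.

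Xist was read from the 129 chromosome. It had 1462 reads from 129 and 4 from CAST, a share of 99.7% (99.3% to 99.9%), and was at 99.2% in the second MEF library and at 98.9% and 98.6% in ES cells. Its position is on the X chromosome, minus strand (listed exon 100655712 to 100663375, mm9). Tsix, its antisense partner, had 0 counts. The 129 X is therefore called below the X that expresses Xist.

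Nearly all other X-linked RNA came from CAST. Over 215 genes the median 129 share was 0.147%, with quartiles of 0% and 3.01%. For 107 genes (49.8%) there was no 129 read, and 172 (80%) were under 5%. Pooled, 2173 of 60915 allelic reads came from 129, or 3.57% (3.42% to 3.72%). The deepest genes fix this level most closely. Flna, an actin cross-linker, had 63 reads from 129 and 17203 from CAST (0.365%, 0.28% to 0.467%), and Msn, the cytoskeletal linker moesin, had 7 and 1871 (0.373%). In the second MEF library the median was 0.443%, and in ES cells 5.26% and 6.28%, levels above that of the MEF.

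A minority of X-linked genes kept reads from the 129 X. At least 10% of allelic reads from 129, with a lower bound of at least 5%, was found at 25 of 215 genes (11.6%). Of these 25, 23 were at 10% or more in the second MEF library, where 8 of 185 other genes were. All 25 were so in ES replicate 1 and all 22 measured in replicate 2, against 34 of 183 and 38 of 175 other genes. Spearman's rho of X-linked shares was 0.75 with the second MEF library (210 genes), and 0.56 and 0.60 with the ES libraries, over variants that all libraries share. Just outside the threshold lay Atp6ap2 with 4 and 19 reads (17.4%, lower bound under 5%) and Hmgn5 with 5 and 38 (11.6%). Just inside lay Cxx1b with 36 and 257 (12.3%).

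Several of the 25 are known escape genes. Kdm5c, a histone demethylase with a Y-linked partner, had 185 and 399 reads, a 129 share of 31.7% (27.9% to 35.6%), and 38.5% in the second MEF library. Ddx3x, an RNA helicase, had 40 and 154 (20.6%, and 25.5%). Pbdc1 had 14 and 66 reads (17.5% and 32.7%), the non-coding gene 5530601H04Rik beside it 14 and 14 (50.0%), and Ftx, a non-coding RNA of the inactivation centre, 6 and 18 (25%). All 5 were also at 10% or more in the second library. The expressed copy on the Xist side thus gave less than the CAST copy at 4 of these genes and as much at 1.

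The list of reported escape genes was only partly above 10%. Of 21 genes listed, 12 were measured, with a median of 3.40% from 129 against 0.147% over all 215 X-linked genes, and 5 of 12 were above the threshold where 11.6% of all were. Mid1, a ubiquitin ligase gene that spans the pseudoautosomal boundary in laboratory mice, had 53 and 2115 reads (2.44%). Bgn, the matrix proteoglycan biglycan, had 69 and 7002 (0.976%, 0.76% to 1.23%). Utp14a had 4 and 88 reads (4.35%) and Ctps2 1 and 81 (1.22%). Shroom4, Syap1 and Slc6a8 had 0 reads from 129 and 115, 109 and 95 from CAST, which allows up to 2.61%, 2.75% and 3.16%. For Utp14a, ES cells were higher, at 24.8% and 21.6%. The demethylase gene Kdm6a, a classic escape gene, had 335 counts but only 6 allelic reads, 2 of them from 129, and Eif2s3x, a translation factor, had 0 and 15.

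Other genes of the 25 are not on that list. Nono, an RNA-binding protein of paraspeckles, was the deepest, with 209 and 873 reads (19.3%, 17.0% to 21.8%), and 19.3% in the second MEF library and 23% and 21.8% in ES cells. Wbp5 had 33 and 128 reads (20.5%), Dkc1, a pseudouridine synthase, 35 and 109 (24.3%), Lage3 33 and 60 (35.5%) and Naa10, an acetyltransferase, 23 and 36 (39.0%). Each was within 10% to 40% in the second MEF library as well. The 2 of 25 below 10% in the second MEF library were Apex2, a DNA repair nuclease, with 19 and 77 reads (19.8%) in wild type and 2.87% there, and Rbm3, an RNA-binding protein, with 7 and 31 reads (18.4%) in wild type and 8 and 78 (9.30%) there. Others, chosen for naming with Apex2 and Rbm3 after their values were seen, were Cxx1a (18.6%), Hmgb3 (37.5%), Armcx3 (39.1%) and Hnrnph2 (70.0%), each with under 100 allelic reads.

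At 9 genes, Hnrnph2 and 5530601H04Rik included, the 129 share reached 50% or more, so that the X that expresses Xist gave at least as many reads as the other. Ngfrap1 had 59 and 0 reads, which allows up to 5.08% from CAST, Cox7b, a respiratory chain subunit, had 45 and 2 (95.7%), and Rps4x, a ribosomal protein, 173 and 21 (89.2%). Rbbp7, a histone-binding protein, had 145 and 35 (80.6%) and Rbm10, a splicing regulator, 44 and 24 (64.7%). Plp2 had 274 and 179 (60.5%) and Slc25a5, a mitochondrial carrier of ADP and ATP, 173 and 114 (60.3%). In the second MEF library and ES replicates 1 and 2 some of these shares were close to the wild-type MEF and others were not. Rps4x was at 86.4%, 90.8% and 81.9%, Slc25a5 at 64.5%, 63.9% and 63.8%, and Ngfrap1 at 100%, 100% and 97.5%. Rbbp7 was at 67.6%, 82.8% and 81.3%, Rbm10 at 69.0%, 45.7% and 67.3%, and 5530601H04Rik at 40.7%, 35.1% and, with 16 allelic reads, 0%. Plp2, Cox7b and Hnrnph2 were above 50% in all 3. Of these genes Rps4x and Slc25a5 have a pseudogene that RefSeq names after them, and Ngfrap1 had only 59 allelic reads out of 2467 counts. Among the 25 genes above the threshold 4 (16%) have such a pseudogene, Hmgb3 and Rbm3 included, against 4.65% of all 215 X-linked genes. Shares of genes with near-identical copies are uncertain, and whether reads of copies or the mapping of reads set these values was not tested.

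By position, the 25 genes were spread along the chromosome. Within 5 Mb of Xist lay 6 of 30 measured genes above the threshold (Nono, Rps4x, Ftx, 5530601H04Rik, Pbdc1 and Cox7b), from 5 to 20 Mb 0 of 12, from 20 to 50 Mb 13 of 95, and farther away 6 of 78. Medians in these classes were 0.307%, 1.25%, 0% and 0.398%, so the bulk of genes was low at every distance. The fixed list of genes subject to inactivation had 68 measured, with a median of 0.39% against 0.147% over all 215 X-linked genes. No 129 read was found at 28 of the 68, against 107 of all 215 (49.8%). Above the threshold were 10 (11.6% of all 215 were), among them Ngfrap1, Cox7b, Rps4x and Rbbp7. On these measures, with depth not matched, the list was no more silent than the X chromosome as a whole, of which it is a part. Medians and counts without a 129 read depend on depth. With a minimum of 50 allelic reads the median over X-linked genes was 0.405%, and with 200 it was 0.982%. A comparison at equal depth was not made. Some well-known genes on it had no read from 129. Pgk1, a glycolytic enzyme, had 0 and 58 reads and Hprt, of purine salvage, 0 and 40, which allows up to 5.17% and 7.50% from 129; both were chosen after their values were seen.

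**Figure D5:**
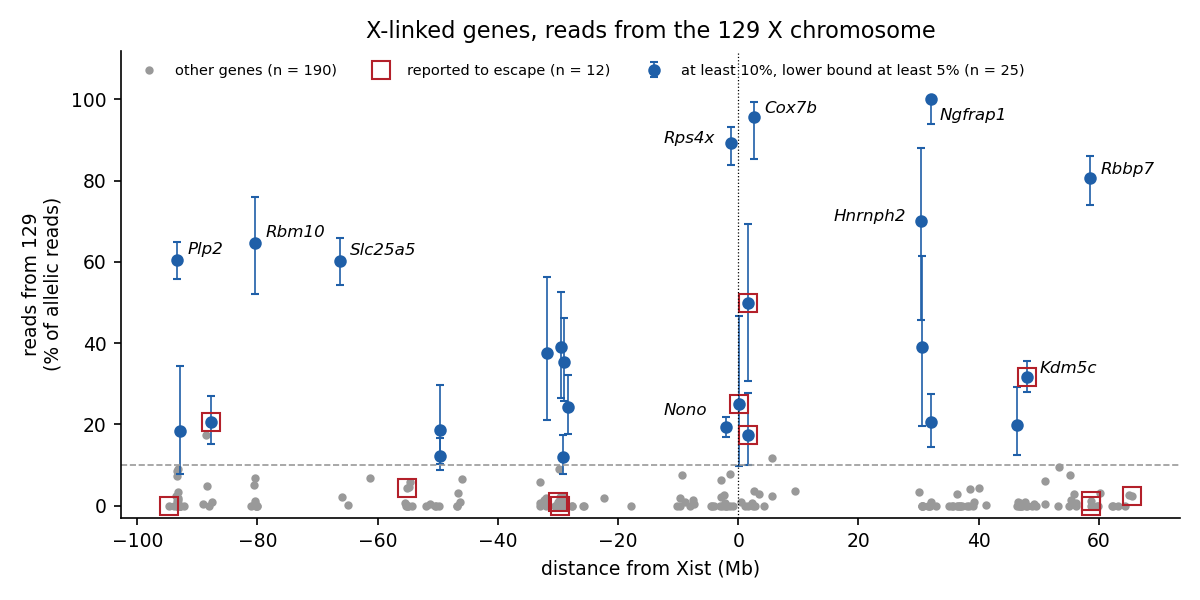
Share of allelic reads from 129 (vertical axis, percent) for 215 X-linked genes against the distance from Xist (horizontal axis, Mb), with the 25 genes above the threshold as large circles with 95% intervals and the 12 measured genes reported to escape in squares. Most genes lie near 0% at every distance, and 9 genes reach 50% or more.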

How the data were processed

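The deposited table holds, per the file headers, whole-number counts of reads per gene in the column layout of featureCounts on build mm9: all reads, reads given to mus (129) and reads given to cas (CAST). Per the submitters' processing notes the series used cutadapt, the aligners Novoalign and TopHat, featureCounts, SAMtools and bedtools, HOMER and Juicer; their roles and versions, the strand setting, the handling of reads with several matches and the way reads were given to alleles are not given in the sources used here. The authors did not normalize the counts, as their sums differ between libraries. The file lists 1 exon's position per gene, used here as the gene's position.

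The share of 129 is 129 reads over 129 and CAST reads, for genes with at least 20 allelic reads (median 138 per autosomal gene, quartiles 62 and 318). This filter left out 436 genes with at least 200 counts, 24 of them on the X chromosome. Past 2-fold means at least 66.7% or at most 33.3%, past 9-fold at least 90% or at most 10%. Intervals are exact Clopper-Pearson at 95%, and 0 reads allow 3 counts of the total. Python 3.11.15 with pandas and scipy was used, and the scripts were tested on simulated data. RPKM and CPM were computed from counts of all reads and the deposited exon lengths.

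Members and gene lists were chosen with earlier results of these data known. Named genes are the 10 highest and 10 lowest autosomal shares at 200 or more allelic reads, imprinted genes past 2-fold and up to 6 others, the 12 highest X-linked shares at 50 or more allelic reads, measured escape genes, up to 4 extreme and the 2 deepest genes of each list, Xist, Tsix and the 4 deepest genes near balance. The Hoxb stretch, the protocadherins, flanking genes, under-filter genes and the remaining X-linked genes were named after their values were seen. RefSeq promoter windows were matched by symbol for 5 of 5 genes sought. A few genes that meet these rules are not reported here.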

Additional observations from a re-analysis of the deposited data

Results flagged for a closer look

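Chromosome 4 and chromosome 7 had medians on opposite sides of balance in the MEF libraries. Chromosome 4 had a median 129 share of 56.96% in wild type and 34.2% in the library without Repeat B. Chromosome 7 had 46.08% and 65.4%. Each value rests on 1 library and the difference was not tested.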

How the results depend on the processing

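Of 83 values recomputed under other settings, 63 stayed within 1.5 times a count or inside the interval of a median, and 20 moved. Changes of direction were marked for 0 values, but many of the values are counts of genes, which have no direction to change. With a minimum of 10 allelic reads, 181 autosomal genes were past 9-fold toward CAST. With 50, 430 and 459 genes were past 2-fold toward 129 and CAST, 58 past 9-fold toward CAST, and 3 listed escape genes above 10%. With 200, the counts were 127 and 141 past 2-fold, 31 and 18 past 9-fold, 10 imprinted genes on their known side and 5 X-linked genes above 10%, and the X-linked median was 0.982%. These minimums test fewer or more genes. Requiring the whole interval past the fold left 282 and 257 genes past 2-fold and 66 and 36 past 9-fold. Pooled over reads, chromosome 4 was at 55.9%, chromosome 5 at 46.3% and the X chromosome at 3.57%. With CAST reads rescaled to a pooled share of 50%, the autosomal median was 50.0%, and 699 genes were past 2-fold toward 129 and 679 toward CAST. Of the 83 values, 9 were added after the data were seen, centring each autosome or leaving out genes that departed in ES cells, and none of these moved. After centring, 653 genes were past 2-fold toward 129 and 592 toward CAST. Which allele had more genes past 2-fold thus depended on the setting. No paired analysis was possible because the wild-type MEF group has 1 library. Depth limits the shares of genes with few allelic reads: at 20 reads a count of 0 still allows 15%.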

Other observations

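Posterior Hoxa genes had too few allelic reads in wild type to be kept, and they lie on the other side from the Hoxb stretch. Hoxa6 had 2 reads from 129 and 13 from CAST, Hoxa7 5 and 11, and Hoxa9 1 and 4. In the MEF library without Repeat B these genes had 0 and 30, 1 and 62, and 0 and 47 reads, while Hoxa5 had 21 and 34. Hoxa5 had 9 and 6 reads in wild type. The Hoxc genes had 0 counts in wild type and the Hoxd genes 1 count in all. These genes were chosen after their values were seen.

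Myo7a and Capn5, neighbours on chromosome 7, had 202 and 20 reads (91.0%) and 32 and 0 reads in wild type, and 86.8% and 95.9% in the other MEF library, while ES cells were at 49.4% and 52.4% for Myo7a and 59.8% and 66.0% for Capn5.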
